A study of Mus musculus with 9 samples.

Results

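Cholesterol and fatty acid synthesis genes were followed in RNA that came down with phosphorylated UPF1 (p-UPF1) from activated mouse B cells. The list comprised 33 genes for enzymes, sterol carriers and regulators under the control of the SREBP transcription factors, and its members were found in the count table by NCBI Gene number. All 33 were among the 27179 gene identifiers of the table, and all 33 passed the filter on low counts, as did 13129 genes in all. The list is defined by function, and its members are taken here by their role in the pathway.

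The measurement was RNA immunoprecipitation sequencing (RIP-seq), in which the RNA recovered with an antibody is sequenced. All libraries came from CD43- splenic B cells of Wild type mice, cultured for 72 h with CD40L at 5 ug/mL, anti-IgM antibody at 10 ug/mL and IL-4 at 20 ng/mL. CD40L is the name in the labels, while the methods of the study list an anti-CD40 antibody. Lysate RNA gave 3 Input libraries, RNA recovered with normal rabbit IgG gave 3 IgG libraries, and RNA recovered with an antibody against p-UPF1 gave 3 p-UPF1 libraries. No allele was altered in any group, so the groups differ by the step at which RNA was taken and not by the state of the cells. Neither the labels nor the methods say how many mice each lysate came from.

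Animal cells make cholesterol from acetyl-CoA through mevalonate, farnesyl diphosphate, squalene and lanosterol, and make fatty acids from acetyl-CoA through malonyl-CoA. Genes of both routes are switched on by the SREBP factors, which Scap escorts out of the endoplasmic reticulum when sterols are scarce and which the Insig proteins hold back when sterols are plentiful. UPF1 is the RNA helicase at the core of nonsense-mediated mRNA decay (NMD), the pathway that degrades mRNAs on which translation stops in an unusual setting. The phosphorylated form recruits the decay factors. Activated B cells enlarge and divide, and need new membrane lipid to do so.

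UPF1 acts where translation ends, so the sequence around the stop codon is shown for members on which the results turn. Each line gives 12 coding bases, the stop codon in capitals and the 15 bases after it, 5′ to 3′, from RefSeq transcripts on mouse build GRCm38. Scd2, Insig1 and Hsd17b7 were recovered well above both controls, Scd1 and Insig2 are the close relatives of the first pair, and Fdps, Nsdhl and Ebp were the members lowest against Input.
Scd2 (chr19:44303186-44303215, plus strand): tgcaagagcggcTGAgtgtggggtcttgca
Scd1 (chr19:44397904-44397933, minus strand): cacaagagtagcTGAgctttgggcttctga
Insig1 (chr5:28076806-28076835, plus strand): cctcacagtgacTGAgcttcagcacatggt
Insig2 (chr1:121305891-121305920, minus strand): tctcatcaagaaTGAagagggcagacgtct
Hsd17b7 (chr1:169953018-169953047, minus strand): gatcacccgagcTGAtgtaggcgttcctca
Fdps (chr3:89093628-89093657, minus strand): aaacggagaaagTGAccccggaattggaga
Nsdhl (chrX:72957600-72957629, plus strand): cggaaggacaagTGAagttccccagtgccc
Ebp (chrX:8185595-8185624, minus strand): agcaagcataacTAAagagccggagagtgg
Among these 8 mRNAs, the stop codon was TGA in each but Ebp, which ends in TAA. Stard4, the member with the highest fold change over Input, is not shown and also ends in TAA. TGA ended 22 of the 33 members (66.7%), TAG 8 and TAA 3, against 51.7% TGA over the 11905 tested genes with a coding transcript.

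Total counts ran from 17372510 to 24945286 per library and were lowest in IgG libraries. All 6 B cell markers were present in every library, with summed levels, in read counts scaled to library size (CPM), of 3119 to 3183 CPM in Input, 2636 to 2799 CPM with IgG and 2275 to 2365 CPM with p-UPF1. Of 5 T cell markers 1 (Thy1), and of 5 myeloid markers 1 (Adgre1), reached 1 CPM in every library. Thy1 had 28.4 to 31.2 CPM in Input, and Adgre1 had 124 to 137 CPM in Input and 53.7 to 56.0 CPM with p-UPF1. Among erythroid markers, the hemoglobin genes Hbb-bs and Hba-a1 had no count anywhere, and Alas2 had 3 to 19 counts per library. In bulk libraries, fewer cells of a type and less RNA per cell cannot be told apart, and since all groups came from the same kind of culture, the comparison is of RNA recovery. No RNA was spiked in, so each level is relative to the rest of its library and not an absolute yield. The labels do not say whether replicates were separate cultures (the study describes its data points in general as biological replicates), so P values measure the spread between these libraries, which may be technical.

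Lipid synthesis mRNAs did not share 1 behaviour with p-UPF1. An RNA was taken as p-UPF1-bound when its log2 fold change reached 1 over IgG and 2 over Input, both with adjusted P below 0.05 by the quasi-likelihood F test of edgeR. Scd2, Stard4, Insig1 and Hsd17b7 met both criteria, which makes 4 of 33 members against 6.25% of all genes tested. Over IgG at any fold, 22 members were higher, 9 were lower and 2 did not pass the test, against 40.4% of all genes higher and 42.2% lower. At the fold minimum of the criterion, 13 members were higher (22.2% of all genes) and Fdps, Sqle and Nsdhl were lower (21.9% of all genes). Without the IgG B library the count of 3 lower members became 1, since Sqle moved from -1.03 to -0.98 and Nsdhl from -1.13 to -0.99 (log2), and with library size as the only scaling it became 5. In a test of the fold minimum itself (edgeR's glmTreat) it was 1, with Fdps passing and Nsdhl (adjusted P = 0.0751) and Sqle (adjusted P = 0.242) not.

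Over Input at any fold, 19 members were higher, 11 were lower and 3 did not pass the test, against 40.8% of all genes higher and 42.6% lower. Past the minimum of 2 (log2), the 4 members named above were higher (6.31% of all genes) and Fdps was lower (9.67% of all genes). In 19 members every p-UPF1 library lay above all 6 control libraries (37% of all genes), and in 8 members every p-UPF1 library lay below them (37.6% of all genes). The median log2 fold change of the members was 0.68 over IgG and 0.50 over Input, where that of all genes tested was -0.03 in both. Both comparisons use the same p-UPF1 libraries, so their values are given side by side and are not independent of each other.

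**Figure D1:**
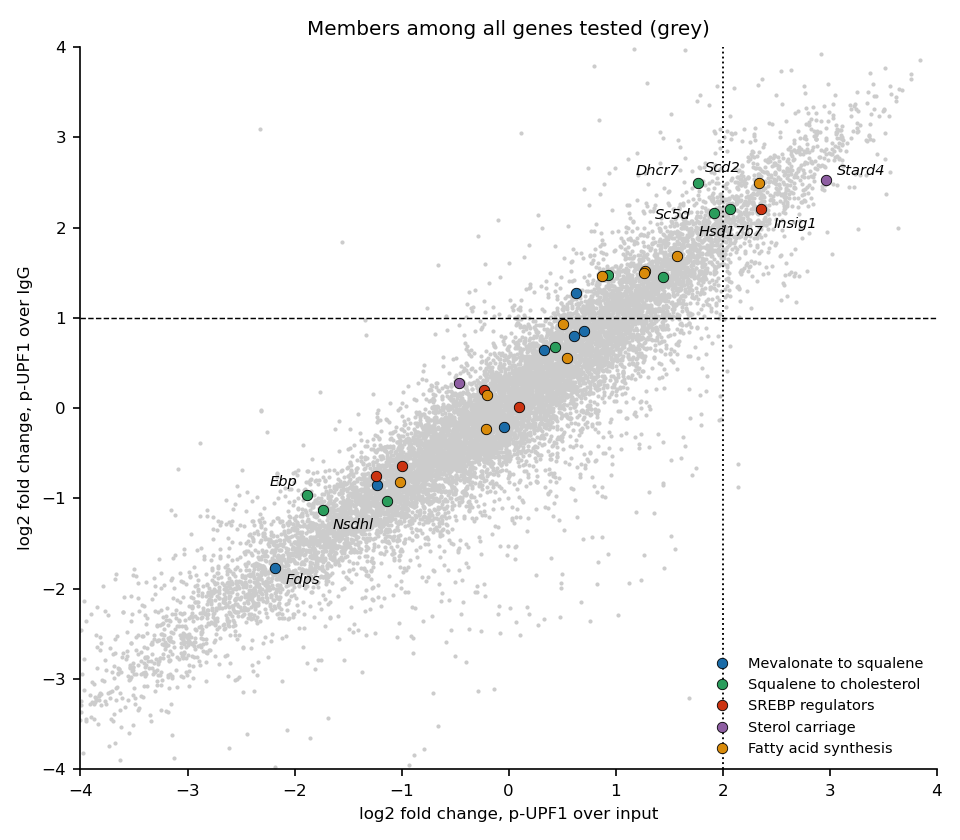
Each point is a gene, with its log2 fold change of p-UPF1 over Input on the x axis and over IgG on the y axis. Grey points are all genes tested, coloured points are the 33 members by role, and lines mark the criteria (1 over IgG, dashed, and 2 over Input, dotted). The axes stop at -4 and 4, which leaves 98 genes outside. Scd2, Stard4, Insig1 and Hsd17b7 lie in the upper right field, Sc5d and Dhcr7 lie just left of it, and Fdps, Ebp and Nsdhl lie at the lower left.

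Scd2 encodes a stearoyl-CoA desaturase, which makes monounsaturated fatty acids. Its level was 1248, 1260 and 1225 CPM in the Input libraries, 1005, 1164 and 1191 CPM in the IgG libraries and 6302, 6347 and 6289 CPM in the p-UPF1 libraries. All p-UPF1 libraries lay far above the other 6, among which IgG was slightly below Input. Against IgG the log2 fold change was 2.49 ± 0.05 (SE, adjusted P = 1.3e-16), and against Input it was 2.34 ± 0.05 (adjusted P = 2e-16), or 5.64-fold and 5.07-fold.

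Stard4, a soluble protein that carries cholesterol between membranes, had the highest fold change of the members over Input. Over IgG, where Scd2 and Dhcr7 were both at 2.49 (log2), Stard4 led by less than its SE. Its level was 95.3, 101 and 96.1 CPM in Input, 104, 142 and 150 CPM with IgG and 737, 782 and 768 CPM with p-UPF1. The IgG libraries were uneven, with IgG A close to Input and the other two higher, and all of them stayed well under the p-UPF1 libraries. It exceeded IgG by 2.53 ± 0.09 (log2, SE, adjusted P = 1.24e-13) and Input by 2.97 ± 0.09 (adjusted P = 1.71e-14), or 5.78-fold and 7.82-fold.

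Insig1 encodes an anchor that, when sterols are plentiful, keeps Scap and the SREBP precursors in the endoplasmic reticulum. It was measured at 167, 167 and 162 CPM in Input, 189, 183 and 181 CPM with IgG and 838, 862 and 846 CPM with p-UPF1. The 3 groups did not overlap, with IgG slightly above Input and p-UPF1 far above both. Against IgG the log2 fold change was 2.20 ± 0.04 (SE, adjusted P = 1.54e-17), and against Input it was 2.36 ± 0.04 (adjusted P = 6.07e-18). The annotation places Gm35223 on the opposite strand over part of Insig1, and counts of such overlapping genes are uncertain where strand was not used.

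Hsd17b7, the keto reductase that closes each round of sterol C4 demethylation, passed the Input criterion by the smallest margin. Its level was 63.8, 66.6 and 62.5 CPM in Input, 56.8, 59.0 and 59.9 CPM with IgG and 269, 278 and 263 CPM with p-UPF1. The p-UPF1 libraries stood apart while Input and IgG were close. It exceeded IgG by 2.20 ± 0.04 (log2, SE, adjusted P = 9.63e-17) and Input by 2.07 ± 0.04 (adjusted P = 1.29e-16). With glmTreat, Hsd17b7 no longer passed the Input criterion (adjusted P = 0.152), while Scd2, Stard4 and Insig1 did.

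**Figure D2:**
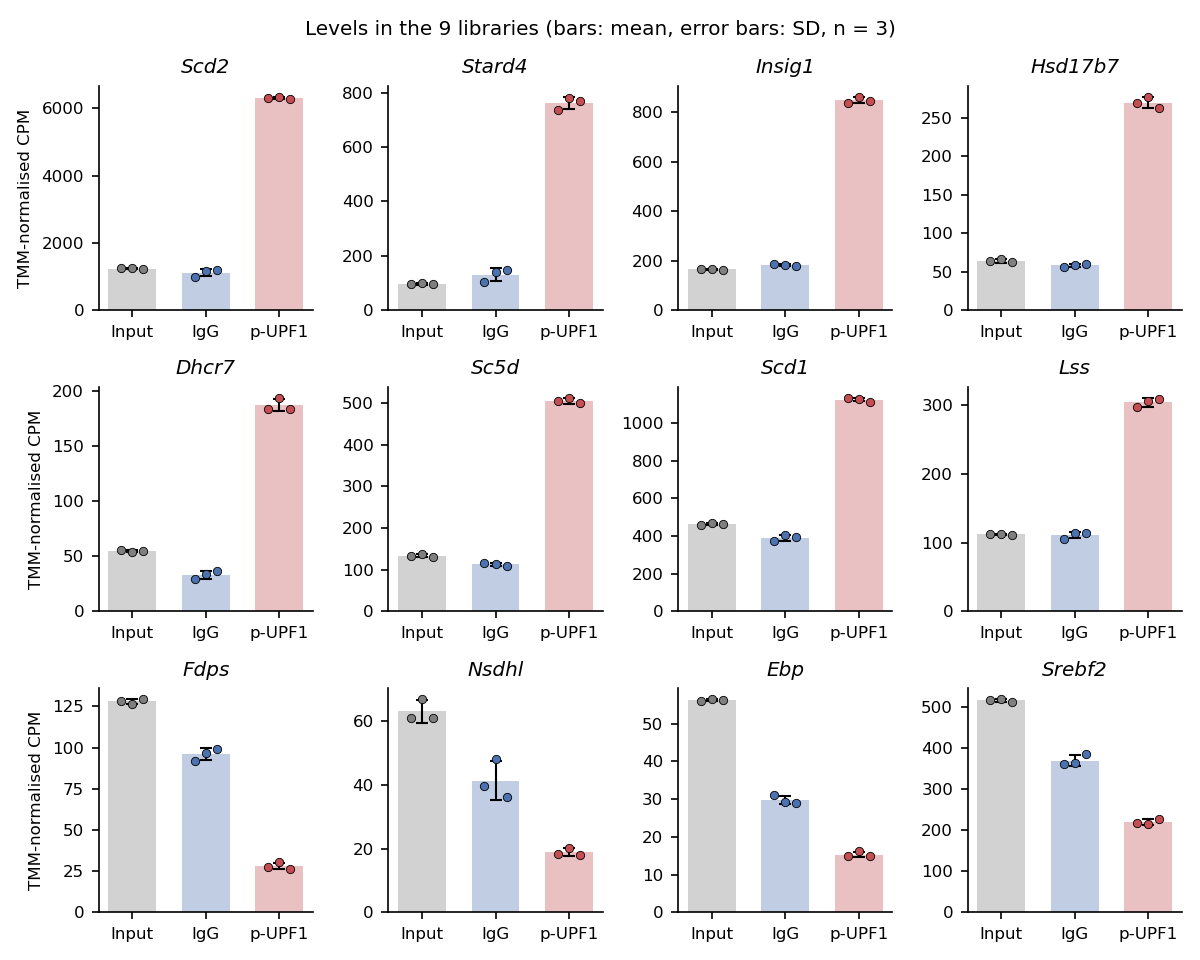
TMM-normalised CPM (y axis, from 0) of 12 members in Input, IgG and p-UPF1 libraries. Points are single libraries, bars the mean and error bars the SD (n = 3). The top row holds the 4 members that met both criteria, the middle row 4 further members with all p-UPF1 libraries on top, and the bottom row 4 members with all p-UPF1 libraries at the bottom.

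The early part of the sterol route, from acetyl units to squalene, held members on both sides. Of its 7 members, 4 were higher and 3 lower than IgG (40.4% and 42.2% of all genes), and 4 were higher and 2 lower than Input (40.8% and 42.6% of all genes). Hmgcs1, the synthase that makes HMG-CoA, rose by 0.79 over IgG and 0.62 over Input (log2). Mvk, the mevalonate kinase, was 0.64 and 0.33 higher, and Mvd, the decarboxylase that makes isopentenyl diphosphate, was 0.85 and 0.71 higher. Idi1, which isomerises that product, was 1.27 higher over IgG and 0.63 over Input. The IgG libraries of Idi1 lay below Input, with 42.9, 54.9 and 50.0 CPM against 77.5, 77.2 and 76.7 CPM in Input and 119, 123 and 115 CPM in p-UPF1. The SE of the 7 members lay between 0.04 and 0.07 in both comparisons.

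Pmvk, the kinase between Mvk and Mvd, was an exception among the enzymes that precede Fdps. It had 42.7, 40.0 and 42.7 CPM in Input, 45.9, 49.2 and 46.4 CPM with IgG and 40.7, 42.3 and 39.2 CPM with p-UPF1. The p-UPF1 libraries overlapped Input and lay below IgG, with log2 fold changes of -0.21 ± 0.06 (SE) over IgG (adjusted P = 0.00244) and -0.04 ± 0.06 over Input (adjusted P = 0.537).

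Fdps, which makes farnesyl diphosphate for sterols and for protein prenylation, had the lowest fold change of the members over both controls. Its level was 128, 127 and 130 CPM in Input, 92.0, 96.9 and 99.4 CPM with IgG and 27.6, 30.4 and 26.6 CPM with p-UPF1. The groups did not overlap, and p-UPF1 libraries held 4.55-fold less than Input and 3.41-fold less than IgG. Against IgG the log2 fold change was -1.77 ± 0.06 (SE, adjusted P = 1.79e-14), and against Input it was -2.18 ± 0.05 (adjusted P = 8.85e-16). Fdft1, the squalene synthase that takes up the product of Fdps, was also lower, at 36.9 to 40.8 CPM in p-UPF1, 63.0 to 75 CPM in IgG and 88.3 to 92.3 CPM in Input libraries, or -0.85 and -1.23 (log2). Mvd and Fdft1 overlap the opposite-strand genes Gm51557 and Ctsb, and their counts are uncertain where strand was not used.

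The later part of the route, from squalene to cholesterol, held high and low members side by side. Of its 9 members, 6 were higher and 3 lower against both controls, where 40.4% and 42.2% of all genes were higher and lower than IgG. All p-UPF1 libraries lay above the other 6 in 6 members (37% of all genes) and below them in 3 (37.6% of all genes). Their median log2 fold change was 1.45 over IgG and 0.93 over Input. Dhcr7, the reductase of the last step to cholesterol, stood at 56.1, 53.9 and 54.4 CPM in Input, 29.3, 33.6 and 37.0 CPM with IgG and 184, 194 and 184 CPM with p-UPF1. Its p-UPF1 libraries lay highest and its IgG libraries lowest, so the log2 fold change was larger over IgG, at 2.49 ± 0.06 (SE, adjusted P = 1.59e-15), than over Input, at 1.77 ± 0.06 (adjusted P = 4.47e-14).

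Sc5d, the desaturase that acts just before Dhcr7, lay closest to the Input criterion from below. Its libraries held 133, 138 and 130 CPM in Input, 115, 115 and 109 CPM with IgG and 503, 512 and 499 CPM with p-UPF1. The p-UPF1 libraries lay far above both controls, with log2 fold changes of 2.16 ± 0.04 (SE) over IgG (adjusted P = 5.67e-17) and 1.92 ± 0.04 over Input (adjusted P = 1.37e-16). With an IgG library as the scaling reference the value over Input became 2.04, and with no filter on low counts 2.05, and under either setting Sc5d met both criteria as well.

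Sterol C4 demethylation uses 3 enzymes in turn, and their mRNAs were recovered in opposite ways. Msmo1, the oxidase, was 1.48 higher over IgG and 0.93 over Input (log2), with 311, 324 and 304 CPM in p-UPF1 against 106, 116 and 116 CPM in IgG and 162, 169 and 162 CPM in Input libraries. Nsdhl, the decarboxylating dehydrogenase that acts next, had 61.0, 66.9 and 60.8 CPM in Input, 39.5, 48.0 and 36.3 CPM with IgG and 18.2, 20.3 and 18 CPM with p-UPF1. All p-UPF1 libraries of Nsdhl were below all others, with log2 fold changes of -1.13 ± 0.09 (SE) over IgG (adjusted P = 6.72e-09) and -1.74 ± 0.09 over Input (adjusted P = 1.22e-11). The last enzyme of the cycle, Hsd17b7, was among the members that met both criteria.

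Of the other members between squalene and cholesterol, Lss and Cyp51 were higher and Sqle and Ebp lower. Lss, the cyclase that makes lanosterol, had 296, 306 and 309 CPM in p-UPF1 against 105 to 114 CPM in the other 6 libraries, or 1.45 over IgG and 1.44 over Input (log2), and it overlaps 4930483K19Rik on the opposite strand. Cyp51, the lanosterol demethylase, was 0.68 and 0.43 higher. Sqle, the squalene epoxidase and a rate-limiting step, had 185, 180 and 179 CPM in Input, 166, 179 and 162 CPM with IgG and 79.2, 84.5 and 83.8 CPM with p-UPF1. Input and IgG libraries of Sqle were close, and the p-UPF1 libraries were lower, at -1.03 over IgG and -1.13 over Input (log2).

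Ebp, the sterol isomerase that precedes Sc5d, was low in both precipitates. It was measured at 56.0, 56.6 and 56.4 CPM in Input, 31.1, 29.1 and 29.1 CPM with IgG and 14.8, 16.2 and 15 CPM with p-UPF1. Each step from Input to IgG to p-UPF1 went down without overlap, with log2 fold changes of -0.92 ± 0.06 for IgG over Input (SE, adjusted P = 3.6e-09), -0.96 ± 0.06 for p-UPF1 over IgG (adjusted P = 4.68e-10) and -1.88 ± 0.06 for p-UPF1 over Input (adjusted P = 2.43e-14).

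**Figure D3:**
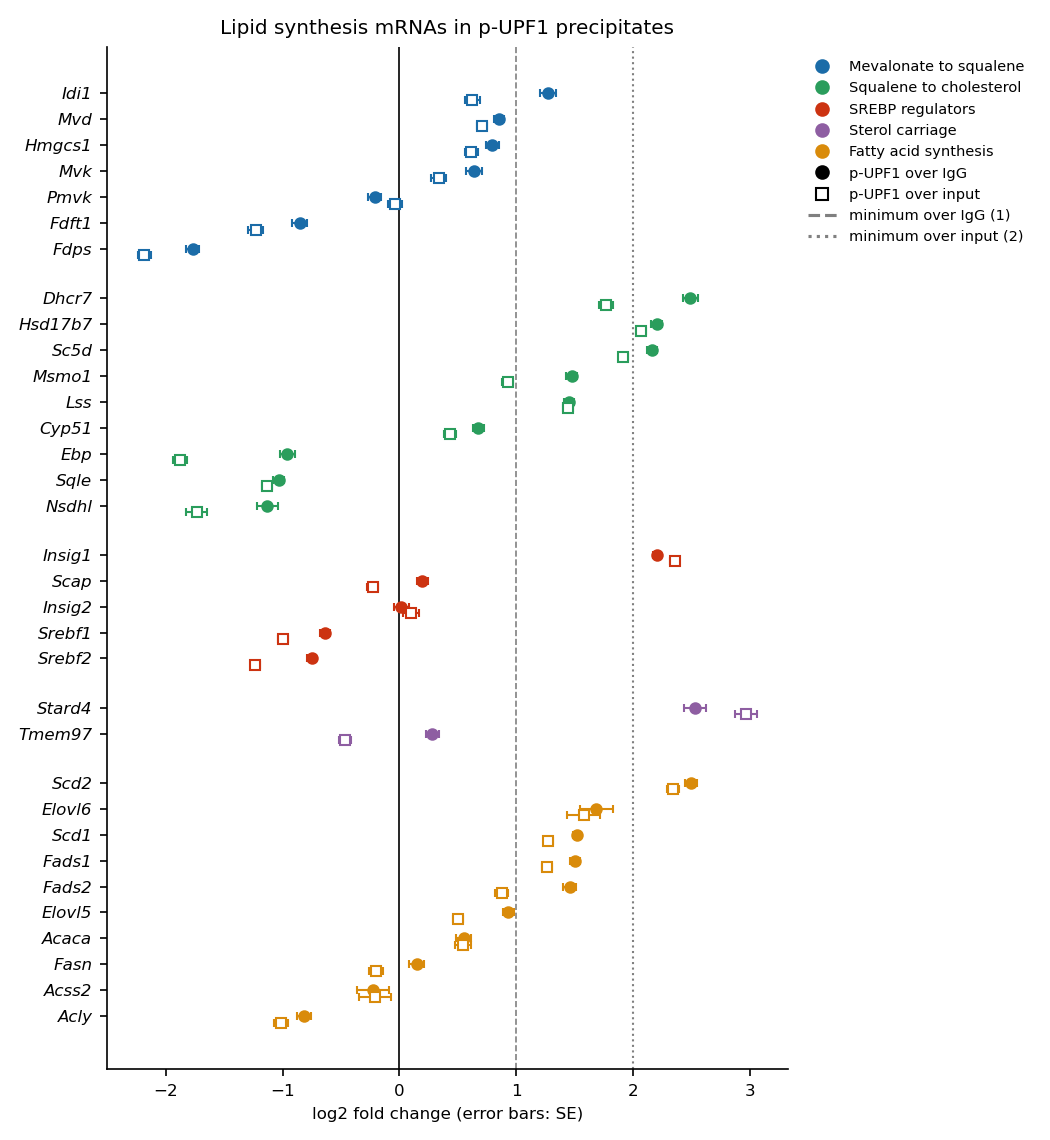
Log2 fold change (x axis, error bars SE) of each of the 33 members, grouped by role and ordered within a role by the value over IgG. Filled circles are p-UPF1 over IgG and open squares p-UPF1 over Input, with the minima of the criteria at 1 (dashed) and 2 (dotted). Every role with more than 2 members holds values on both sides of 0, and open squares lie left of the circles in most members, with Insig1 and Stard4 among the exceptions.

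Among the SREBP regulators, the brake Insig1 was higher with p-UPF1 and both transcription factors were lower. Srebf2, which encodes the factor that acts mainly on sterol genes, had 517, 519 and 512 CPM in Input, 360, 362 and 385 CPM with IgG and 217, 214 and 227 CPM with p-UPF1. Srebf1, which encodes the factor that acts mainly on fatty acid genes, had 145 to 149 CPM in Input, 111 to 117 CPM with IgG and 71.0 to 75.8 CPM with p-UPF1. For both, the 3 groups fell in the same order without overlap. The log2 fold change of Srebf2 was -0.75 ± 0.04 (SE) over IgG (adjusted P = 2.25e-11) and -1.23 ± 0.04 over Input (adjusted P = 2.56e-14), and that of Srebf1 was -0.64 ± 0.04 (adjusted P = 5.76e-10) and -1.0 ± 0.04 (adjusted P = 1.08e-12). Rai1 overlaps Srebf1 on the opposite strand.

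Scap and Insig2 stayed near the typical RNA. Scap had 112 to 114 CPM in Input, 80.9 to 90.7 CPM with IgG and 95.0 to 97.9 CPM with p-UPF1, so p-UPF1 lay between the controls, at 0.20 over IgG (adjusted P = 0.00142) and -0.23 over Input (adjusted P = 0.000305). These small values of Scap lost their calls with other scalings, at 0.03 to 0.11 over IgG (adjusted P = 0.0525 to 0.550) by library size, by upper-quartile factors or with an Input library as the reference, and at -0.10 over Input with an IgG library as the reference (adjusted P = 0.0704) or with no filter on low counts (adjusted P = 0.124). Insig2 had 32.6, 31.4 and 32.7 CPM in Input, 36.0, 34.6 and 31.9 CPM with IgG and 33.2, 37.0 and 33.4 CPM with p-UPF1. Its IgG libraries overlapped both other groups, and its p-UPF1 libraries lay just above Input. Its log2 values of 0.02 ± 0.07 (SE) over IgG (adjusted P = 0.836) and 0.10 ± 0.07 over Input (adjusted P = 0.170) did not pass the test, while over Input it passed at 0.23 with an IgG library as the scaling reference (adjusted P = 0.00572) or with no filter on low counts (adjusted P = 0.00343), and at 0.12 (adjusted P = 0.0338) with only p-UPF1 and Input fitted.

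The Insig paralogs therefore parted in the p-UPF1 precipitate. The ratio of Insig1 to Insig2 CPM, not corrected for transcript length, was 4.97 to 5.32 in Input, 5.23 to 5.68 with IgG and 23.3 to 25.4 with p-UPF1. The p-UPF1 ratio lay above both controls in all 3 libraries, by 2.19 ± 0.05 over IgG and 2.26 ± 0.05 over Input (log2, SE), with an exact two-sided permutation P of 0.1, the smallest that 3 against 3 libraries allow. Transcript length cancels when this ratio is compared between groups. The coding sequences share 70.1% of aligned bases and the longest identical run of the transcripts is 14 bases. Other paralogs of the list were compared in the same way. Over IgG the log2 change of the ratio was -0.11 for Srebf2 to Srebf1 and -0.81 for Elovl5 to Elovl6 (permutation P of 0.1 in each). For Fads1 to Fads2 it was 0.04 (permutation P of 0.6). Over Input these values were -0.24, -1.07 and 0.39, each with a permutation P of 0.1. Scd2 and Scd1 are given below.

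Of the sterol carriers, Stard4 was described above and Tmem97 behaved differently. Tmem97 encodes a membrane protein that binds sterols and partners with the cholesterol exporter of lysosomes. Its level was 51.9, 52.8 and 48.5 CPM in Input, 30.2, 29.8 and 31.2 CPM with IgG and 37.2, 37.8 and 35.9 CPM with p-UPF1. The p-UPF1 libraries lay between the controls, at 0.28 over IgG (adjusted P = 0.000294) and -0.47 over Input (adjusted P = 6.43e-07) on the log2 scale, and with library size as the only scaling the value over IgG was 0.12 (adjusted P = 0.0652).

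In fatty acid synthesis, the desaturases and elongases of the list were higher with p-UPF1, Acly was lower and Acss2 did not pass the test. Of the 10 members, 8 were higher and 1 lower than IgG (40.4% and 42.2% of all genes), where the call of Fasn was lost under several alternatives, and 7 were higher and 2 lower than Input (40.8% and 42.6% of all genes). Acly, which makes cytosolic acetyl-CoA from citrate, had 371, 392 and 396 CPM in Input, 317, 344 and 350 CPM with IgG and 169, 201 and 203 CPM with p-UPF1. Its p-UPF1 libraries lay below the rest, at -0.82 ± 0.06 (SE) over IgG (adjusted P = 1.99e-09) and -1.02 ± 0.06 over Input (adjusted P = 9.94e-11). Acss2, which makes acetyl-CoA from acetate, was low throughout at 6.70 to 9.90 CPM. Its IgG libraries spanned both other groups, and p-UPF1 (7.09 to 7.41 CPM) lay just below Input (7.67 to 9.12 CPM). The log2 fold changes were -0.23 ± 0.14 over IgG (adjusted P = 0.132) and -0.21 ± 0.14 over Input (adjusted P = 0.159). Acss2 passed as lower than IgG without the IgG A library (-0.37, adjusted P = 0.00622) and under 3 other scalings, at -0.39 (adjusted P = 0.0146) by library size, -0.36 (adjusted P = 0.0210) by upper-quartile factors and -0.31 (adjusted P = 0.0436) with an Input library as the reference. It overlaps Acss2os on the opposite strand.

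Acaca and Fasn carry out the chain building itself. Acaca, the carboxylase that makes malonyl-CoA, had 124, 139 and 138 CPM in Input, 121, 135 and 143 CPM with IgG and 182, 191 and 212 CPM with p-UPF1. The controls of Acaca overlapped and p-UPF1 lay above both, by 0.55 ± 0.07 (SE) over IgG (adjusted P = 8.75e-07) and 0.54 ± 0.07 over Input (adjusted P = 9.01e-07), and Tada2a, Gm11437 and Gm31074 overlap it on the opposite strand. Fasn, the fatty acid synthase, had 427 to 467 CPM in p-UPF1, 359 to 446 CPM in IgG and 493 to 531 CPM in Input libraries. The p-UPF1 libraries of Fasn overlapped IgG, and the value of 0.15 over IgG (adjusted P = 0.0394) turned to -0.01 (adjusted P = 0.820) with library size as the only scaling. It was 0.01 (adjusted P = 0.863) with upper-quartile factors, 0.06 (adjusted P = 0.349) with an Input library as the scaling reference, 0.14 (adjusted P = 0.0869) with the Input libraries left out of the fit and 0.07 (adjusted P = 0.184) without IgG A. The call was also lost when Input C, IgG B, p-UPF1 B or p-UPF1 C was left out, at adjusted P of 0.0511 to 0.133. Over Input, Fasn stood at -0.20 (adjusted P = 0.00685), at -0.15 (adjusted P = 0.0547) without p-UPF1 A, at -0.07 (adjusted P = 0.260) with an IgG library as the scaling reference and at -0.07 (adjusted P = 0.204) with no filter on low counts. With the column letter fitted as a block, a choice made after seeing the data, the adjusted P was 0.00315 over IgG and 0.000241 over Input. Whether the letters mark shared lysates is not settled.

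In the 6 members that elongate or desaturate chains (Elovl5, Elovl6, Scd1, Scd2, Fads1 and Fads2), all p-UPF1 libraries lay above all control libraries, as in 37% of all genes. Elovl6, the elongase of saturated chains, had 9.65, 10.1 and 9.37 CPM in Input, 6.22, 8.73 and 12 CPM with IgG and 29.7, 29.4 and 27.9 CPM with p-UPF1, or 1.69 ± 0.14 over IgG and 1.58 ± 0.14 over Input (log2, SE). Relative to their mean, its IgG libraries were the most spread among the members, and they still lay below p-UPF1. Elovl5, the elongase of polyunsaturated chains, was 0.93 higher over IgG and 0.50 over Input. Elovl5 and Elovl6 overlap Gm34771 and Gm35986 on the opposite strand.

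The front-end desaturases Fads1 and Fads2, which make polyunsaturated chains, had similar values over IgG. Fads1 had 74.5, 74.1 and 74.9 CPM in Input, 62.4, 63.0 and 64.3 CPM with IgG and 179, 185 and 173 CPM with p-UPF1. Fads2 had 82.1, 84.4 and 84.8 CPM in Input, 50.5, 58.5 and 58.4 CPM with IgG and 153, 158 and 150 CPM with p-UPF1. Both separated all groups, at 1.5 and 1.46 over IgG and 1.26 and 0.87 over Input (log2).

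Scd1, the paralog of Scd2, was higher with p-UPF1 but fell short of the Input criterion. It had 461, 468 and 464 CPM in Input, 375, 407 and 393 CPM in IgG, and 1132, 1127 and 1113 CPM in p-UPF1 libraries. The p-UPF1 libraries lay above all others, and IgG lay below Input. The log2 fold change of Scd1 was 1.52 ± 0.04 (SE) over IgG (adjusted P = 1.12e-15) and 1.28 ± 0.04 over Input (adjusted P = 7.09e-15). The ratio of Scd2 to Scd1 CPM was 2.64 to 2.71 in Input, 2.68 to 3.03 with IgG and 5.57 to 5.65 with p-UPF1, so it was higher in p-UPF1 by 0.98 ± 0.05 over IgG and 1.07 ± 0.01 over Input (log2, SE), with an exact two-sided permutation P of 0.1 in each, the smallest possible. The coding sequences of Scd1 and Scd2 share 90.4% of aligned bases and their transcripts hold an identical run of 147 bases, so reads from one may have been counted for the other or discarded, and their separate levels are uncertain.

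IgG precipitates were themselves poorer than Input in most lipid synthesis mRNAs. Of the 33 members, 24 were lower and 3 higher in IgG than in Input, against 34.7% of all genes lower and 18.2% higher, and 6 did not pass the test. The median log2 fold change was -0.24, where that of all genes was -0.10. Scaling by library size, by upper-quartile factors or with an Input or IgG library as the TMM reference brought the members' median to between -0.13 and -0.17 and that of all genes to between -0.03 and 0.01. Ebp was lowest, followed by Tmem97 at -0.75 and Dhcr7 at -0.72, and the members higher in IgG were Stard4 at 0.44, Pmvk at 0.17 and Insig1 at 0.15. With library size as the only scaling, 19 members were lower and 5 higher. The shares of all genes were not counted under that scaling, where the median of all genes was 0.01. For Tmem97, Scap and Fasn, the p-UPF1 mean lay between those of the controls.

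Reads of the 33 members together made up 0.605% ± 0.00425 of all counts in Input, 0.555% ± 0.0227 with IgG and 1.33% ± 0.0138 with p-UPF1 (SD, n = 3). Scd2 alone took 0.122% of counts in Input, 0.119% with IgG and 0.601% with p-UPF1. Without Scd2, the other 32 members held 0.483%, 0.436% and 0.733% of counts, so the p-UPF1 share stayed the highest. These shares count reads and are not corrected for transcript length.

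Fold changes with p-UPF1 went with the length of the 3′ untranslated region (3′ UTR), and a long 3′ UTR is a known feature of some NMD targets. Across the 33 members, the log2 fold change over IgG and the log2 annotated 3′ UTR length had a Pearson r of 0.65 and a Spearman rho of 0.643, and over Input the values were 0.672 and 0.67. The median annotated 3′ UTR was 1498 bases in the members and 1015 bases in the 11905 tested genes with a coding transcript. Across those 11905 genes, Pearson r was 0.36 over IgG and 0.378 over Input. The control precipitate showed a weaker relation of the same sign, with a Pearson r of 0.333 and a Spearman rho of 0.348 for IgG over Input across the members and 0.121 and 0.166 across all genes. These are descriptions across genes that share the same 9 libraries and are not independent replicates. Coding length gave an r of -0.288 over IgG for the members and 0.142 for all genes, 3′ UTR GC content gave -0.202 and 0.306, and the Input level gave 0.042 and -0.219.

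The length classes used here were chosen after the values were seen. All 6 members with a 3′ UTR of 3000 bases or more (Elovl6, Hsd17b7, Lss, Scd1, Scd2 and Stard4) lay between 1.45 and 2.53 over IgG (log2), with a median of 1.95. Of all 1496 genes in that class, 888 lay above 0 and the median was 0.26. In the class from 1500 to under 3000 bases the median was 0.74 for 10 members and 0.52 for 2816 genes, so over all genes the median was lower in the longest class. In the class from 500 to under 1500 bases the order turned, with a median of 0.03 for 10 members and 0.20 for 4135 genes over IgG, and of -0.34 and 0.14 over Input. Among the 7 members with a 3′ UTR under 500 bases the median was -0.21, and 3 (Mvk, Mvd and Scap) lay above 0, where the 3458 genes of that class had a median of -0.70 with 959 above 0. Fdps, the lowest member, had the shortest annotated 3′ UTR of the list, at 55 bases, and Stard4, the highest over Input, had one of 4448 bases.

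Length did not order every member. Insig1 and Insig2 have 3′ UTRs of 1842 and 1553 bases and lay at 2.20 and 0.02 over IgG, and Scd2 and Scd1 have 3664 and 3469 bases and lay at 2.49 and 1.52. Dhcr7 and Nsdhl have 893 and 914 bases and lay at 2.49 and -1.13, and Fdft1, with 1600 bases, lay at -0.85. Other features linked to NMD were counted as well. An exon junction 50 or more bases past the stop codon, the classical mark, was found in 0 of 33 annotated member transcripts and in 35 of the 11905 genes. At least 1 upstream ATG in the 5′ UTR was found in 18 members (54.5%) and in 48.5% of all genes, and of the members meeting both criteria Scd2 had 8, Insig1 had 1, and Hsd17b7 and Stard4 had 0. One annotated transcript per gene was used, so isoforms made in these cells may differ.

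**Figure D4:**
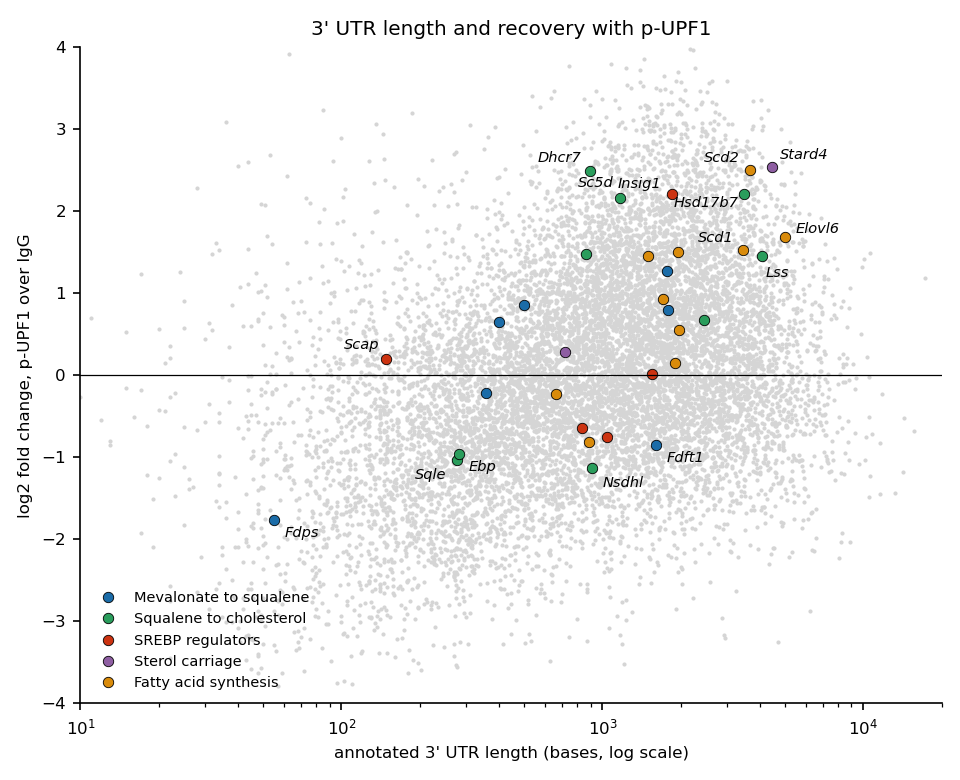
Annotated 3′ UTR length in bases (x axis, log scale) against the log2 fold change of p-UPF1 over IgG (y axis). Grey points are all tested genes with a 3′ UTR of at least 10 bases that fall within the axes, and coloured points are the 33 members by role. The 6 members at 3000 bases or more all lie above 1, Fdps lies at the lower left, and Dhcr7 and Nsdhl lie far apart at nearly the same length.

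Other genes of the same pathways, taken from lists of 36 genes by function, were counted for comparison. Of these, 34 were tested. Over IgG, 17 were higher, 12 lower and 5 did not pass the test (40.4% and 42.2% of all genes were higher and lower). Over Input 15 were higher, 16 lower and 3 did not pass (40.8% and 42.6% of all genes). Their median log2 fold change was 0.26 over IgG and -0.13 over Input. Among 7 further sterol and isoprenoid enzymes 3 were higher and 3 lower than IgG, among 6 genes of SREBP cleavage and sterol-dependent degradation 3 were higher and 2 lower, among 10 tested genes of uptake, transport and oxysterol response 5 were higher and 3 lower, and among 11 tested further fatty acid genes 6 were higher and 4 lower.

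Of the 34, 1 met both criteria (6.25% of all genes) and 1 was lower by at least 2 over Input (9.67% of all genes), so neither count exceeded the share over all genes. Gpam, the acyltransferase that starts glycerolipid synthesis, had a mean of 21.9 ± 0.770 CPM in Input, 33.2 ± 7.81 CPM with IgG and 90.6 ± 0.270 CPM with p-UPF1 (SD, n = 3). Against IgG the log2 fold change was 1.44 ± 0.11 (SE, adjusted P = 1.8e-09), and against Input it was 2.05 ± 0.11 (adjusted P = 2.48e-11). Tecr, the reductase that ends each round of fatty acid elongation, had 179 ± 1.54 CPM in Input, 120 ± 2.31 CPM with IgG and 39.0 ± 1.84 CPM with p-UPF1 (SD, n = 3), or -1.63 over IgG and -2.19 over Input (log2). Tecr acts in the same elongation cycle as the members Elovl5 and Elovl6, which were higher with p-UPF1.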

How the data were processed

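RIP-seq was analysed in 9 libraries (3 Input, 3 IgG, 3 p-UPF1). The authors deposited raw read counts per NCBI Gene number. The submitters' processing notes name cutadapt, HISAT2 and featureCounts with build mm10, without versions. The RNA-seq methods of the study name unstranded alignment, and how strand and multiply mapping reads were treated for RIP-seq is not given in the sources used here. Reads carried no molecular identifiers, so counting error understates the true error.

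The members and lists were chosen with earlier results of these data known. Every member was named, and of the other pathway genes those that met both criteria or were lower by at least 2 over Input. The remaining elongation genes were named beside Tecr. Columns carried letters and labels numbers, so columns were assigned to groups only. Counts were filtered (filterByExpr, minimum count 10, minimum total 15), scaled by TMM and fitted in edgeR 4.0.16 (R 4.3.3) with 3 groups and no covariate (glmQLFit, glmQLFTest, two-sided, 6 residual degrees of freedom), with Benjamini-Hochberg adjustment over 13129 genes holding 99.95% of counts. SE was derived from the F statistic. A prior count of 0.125 entered the fitted log2 fold changes. CPM of members are TMM-normalised, and those of markers are not. The code was tested on simulated counts. Gene numbers (25275 of 27179) and 1 transcript per gene (curated first, then longest coding sequence) were taken from RefSeq GRCm38.p6. Alternatives used other scalings, filters, glmTreat, limma-voom 3.58.1, DESeq2 1.42.0, fits of 2 groups, leaving out each library and a block by column letter (added after seeing the data).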

Additional observations from a re-analysis of the deposited data

How the results depend on the processing

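The 4 members meeting both criteria numbered 4 under most alternatives and whenever 1 library was left out, 5 (with Sc5d) with an IgG library as TMM reference or no low-count filter, and 3 (without Hsd17b7) with glmTreat, which left 1 member lower than IgG by the criterion. With library size as the only scaling, 5 members were lower than IgG by the criterion and 5 were higher in IgG than Input, Fasn over IgG turned to -0.014 (adjusted P = 0.820) and Lss in IgG over Input turned to 0.11 (adjusted P = 0.0319). Shares of all genes were not counted under this scaling. This scaling moved the median of all genes over IgG from -0.03 to -0.19. The cause was not tested. The members' median over IgG was 0.52 by library size and 0.54 by upper-quartile factors. Over Input it was 0.63 with an IgG library as TMM reference and 0.64 with no filter. For IgG over Input it was -0.13 by library size, -0.17 by upper-quartile factors, -0.14 with TMM referred to an Input or to an IgG library, -0.16 with no filter and -0.14 with only the 2 groups fitted. The median of all genes in IgG over Input went from -0.10 to 0.01, -0.03, 0.00458, -0.0021, -0.05 and 0.00452 in these 6 settings. Leaving out single libraries gave 1 to 3 members lower than IgG (1 without IgG B). The columns carry letters that cannot be tied to the replicate numbers of the labels, so a replicate block by label number could not be fitted. A block by column letter, chosen after seeing the data, gave 13 members higher and 3 lower than IgG by the criterion, 4 meeting both criteria, and Fasn at an adjusted P of 0.00315 over IgG and 0.000241 over Input. It left all calls of members against IgG and Input in p-UPF1 on their side of the threshold, and Sqle in IgG over Input passed (-0.10, adjusted P = 0.0494). Deviations from group means correlated between libraries of the same letter at r of -0.0051 to 0.0542 over 13129 genes, and not every library correlated best with its own letter, so the letters were not taken as pairs. The methods of the study take input from part of a lysate and the precipitates from the rest, so libraries may be matched by lysate. These weak correlations do not exclude such a match, and fits without a block leave it out.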
